A study of Scophthalmus maximus with 8 samples.

Results

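The genes described here are 61 turbot genes with a peak of expression in post-metamorphic fish at 37 days post hatching (dph). They are 0.287% of the 21263 genes counted. Turbot (Scophthalmus maximus) is a flatfish. RNA was sequenced from 8 fish, 2 independent biological replicates at each of 4 stages: phylotypic (3 days post fertilization, dpf), pre-metamorphic (15 dph), climax of metamorphosis (23 dph) and post-metamorphic (37 dph). Whole animals were used at 3 dpf, whereas fish of the 3 later stages had the hind part of the body from the cloaca cut off, so stage and body part cannot be told apart between 3 dpf and the later stages. The labels give no strain, sex or treatment for any fish. In these bulk samples, fewer cells of a type and less RNA per cell cannot be told apart.

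Members were chosen from the measured values. Raw counts were divided by median-of-ratios size factors to give normalized counts, and a member needed a mean of at least 50 normalized counts at 37 dph, at least 8 times the mean of each of the other 3 stages, and no stage mean of 20000 or more. Every contrast of 37 dph with an earlier stage was used by this rule and is given as a description. Only differences among 3 dpf, 15 dph and 23 dph, and differences between replicates of those stages, were left for a comparison. Differences between the 37 dph libraries are given as a description. The count tables name genes by Ensembl identifier alone and 0 of the 21263 identifiers matched the RefSeq gene table, so what the members encode was not analysed here. They are numbered from 1 to 61 by their mean at 37 dph, with member 1 the most abundant, and 4 are named by identifier. The counts on genes ranged from 19077018 to 24633023 per library.

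During metamorphosis of a flatfish one eye migrates across the head, the upper side becomes pigmented and the fish settles on the bottom. Thyroid hormone drives the change, and organs such as the gut, the skin, the skeletal muscle and the blood replace larval cells or proteins with their adult forms. Each library sums over all organs in the tissue taken.

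Normalized counts of the 61 members at 37 dph ran from a mean of 58.6 to a mean of 8244, with a median of 852. Of the 61, 8 members had a mean under 100, 26 lay from 100 up to 1000, 21 from 1000 up to 5000 and 6 above that. At the earlier stages the median of the member means was 5.002 at 3 dpf, 17.3 at 15 dph and 55.7 at 23 dph. Together the members took 0.0053% ± 0.00070 of all counts on genes in 3 dpf embryos and 0.0145% ± 0.0016 in 15 dph larvae. This share was 0.0306% ± 0.00064 in fish at climax and 0.408% ± 0.091 in juveniles of 37 dph (SD, n = 2 libraries each). The 10 most abundant members held 52.3% of the summed 37 dph means.

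**Figure D1:**
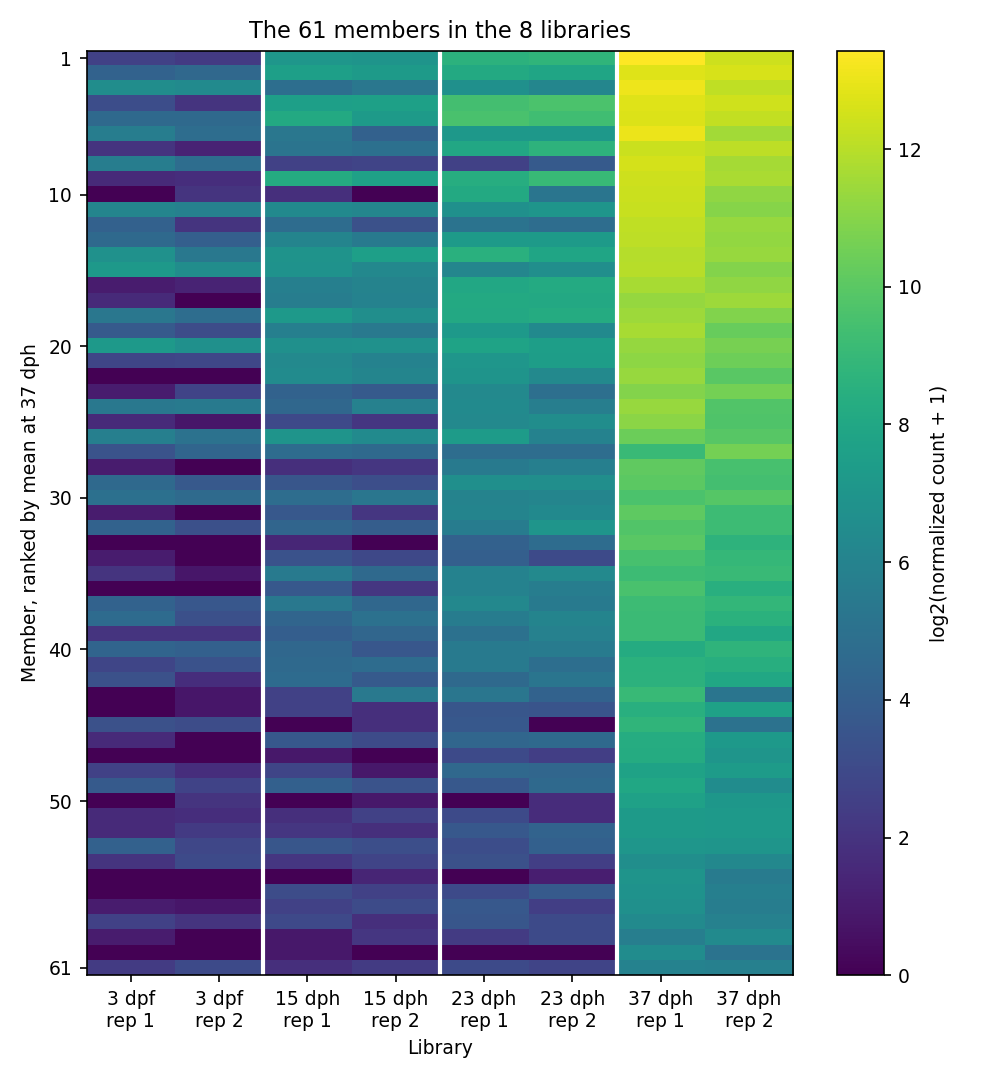
Each row is 1 of the 61 members, ranked by mean at 37 dph, and each column is 1 of the 8 libraries in order of stage, with colour giving log2(normalized count + 1). The 37 dph columns are the brightest in nearly every row, members 43 and 45 have a dark cell in replicate 2 of 37 dph, and colour in the earlier columns ranges from no counts to the level of well-counted genes.

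The fold of 37 dph over the next-highest stage had a median of 12.2. With earlier libraries held at no less than 3 counts it ran from 8.03 to 121, and 19 members stood under 10-fold, 22 from 10 up to 20-fold, 15 from 20 up to 50-fold and 5 above 50-fold. The members just inside the limit had folds of 8.03, 8.04 and 8.10, and the genes just outside it had 7.83, 7.78 and 7.76. The lowest 37 dph mean of a member was 58.6, and the highest among genes that passed the fold but not the level was 43.1. A further 8 genes passed the fold and were left out for a 37 dph mean of 26188 or more.

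ENSSMAG00000002590, member 1, is shown as the most abundant. It had 4.99 and 3.90 normalized counts in the 3 dpf libraries, 131 and 124 at 15 dph, 389 and 441 at 23 dph, and 11019 and 5469 at 37 dph. Its level was higher at each successive stage, no library of one stage overlapped those of another, and the 37 dph mean was 19.9 times that of 23 dph. ENSSMAG00000022771, member 12, had the largest ratio of the lower 37 dph library to the highest of the other 6. Its normalized counts were 16.96 and 3.12 at 3 dpf, 25.6 and 9.06 at 15 dph, 33.7 and 26.6 at 23 dph, and 4540.5 and 2586 at 37 dph. It had at most 33.7 in any of the 6 earlier libraries, the libraries of 3 dpf and 15 dph overlapped, and its lower 37 dph library was 76.6 times the highest earlier one.

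Few members were silent at all 3 earlier stages. At 3 dpf, however, 22 of the 61 had at most 3 counts in both libraries. Replicates 1 and 2 of 3 dpf had 11 and 13 members at 0 counts, against 1892 and 1812 of all 21263 genes. A count was present in each of the 6 earlier libraries for 43 of the 61, and 20 had at least 10 counts in each of those libraries. At the other end, 2 members had at most 3 counts in every earlier library. Member 55 had 0 counts in both 3 dpf libraries and at most 2 in the other 4, against 83 and 48 counts at 37 dph. Member 60 had a single count in the 6 earlier libraries, against 60 and 35 counts at 37 dph. A count of 0 allows up to 3 counts, so absence is not shown for any of them. The term juvenile-only thus fits few of the 61, whose earlier reads were mostly present and low only beside 37 dph. At 23 dph 32 of the 61 had a mean of at least 50, the level the rule required at 37 dph.

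In 60 of the 61 members both 37 dph libraries lay above each of the other 6, against 20.5% of all 18987 genes tested, a contrast the rule itself used. The exception was member 43, with 519 normalized counts in replicate 1 of 37 dph and 36.9 in replicate 2, beside 42.0 in replicate 2 of 15 dph. In 31 members the lower 37 dph library was at least 8 times the highest earlier library. This count also follows in part from the rule, and its share over all genes was not computed.

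Of the 61 members, 54 had 23 dph as the next-highest stage, 5 had 3 dpf and 2 had 15 dph. The stage means increased at every step from 3 dpf to 15 dph to 23 dph in 43 members, or 70.5%, beside 26.7% of the 15950 genes with a mean of at least 50 at 37 dph. The mean at 23 dph was a median of 8.20% of that at 37 dph, against 2.34% for 15 dph and 0.728% for 3 dpf. Over the 8 days from 15 to 23 dph the member means differed by a median ratio of 2.26, and over the 14 days from 23 to 37 dph by 11.8, the second ratio being fixed in part by the rule.

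**Figure D2:**
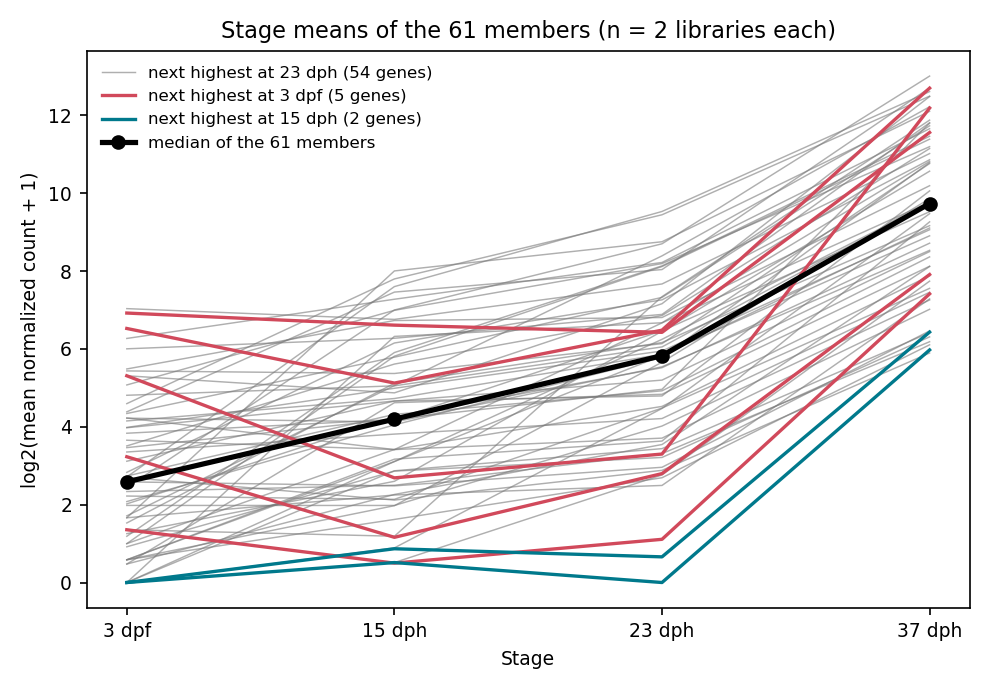
Stage means of each member on a log2(mean normalized count + 1) axis, with 1 line per gene over the 4 stages, coloured by the next-highest stage, and the median of the 61 members in black. Most lines climb to 23 dph before the steep last step to 37 dph, while the 5 genes next highest at 3 dpf dip or stay level at 15 dph and 23 dph.

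Levels at climax were compared with those before it, a contrast that the rule did not use, although it limited the level of both stages relative to 37 dph. All 61 members passed the filter on low counts in the fit of all 8 libraries, but 14 of them did so through libraries outside this comparison, and 47 passed in the 4 libraries of 15 dph and 23 dph alone. The counts over 61 are therefore descriptions of the members. Of the 61, 16 rose at 23 dph over 15 dph (26.2%), against 1.48% of the 18987 genes tested, by edgeR's quasi-likelihood test. A call needed a p-value under 0.05 after Benjamini-Hochberg adjustment over all genes tested, together with an at least 2-fold difference. No member was called lower, against 0.200% of all genes tested, a share at which 0 of 61 says little about the members. The count was also 0 at an unadjusted p under 0.05, in DESeq2 and in limma voom, for which the share of all genes was not computed. The median log2 fold change of the members was 1.14, beside 0.00 for all genes, and it was 1.07 with libraries held at no less than 3 counts. Fitted on the 4 libraries of these stages alone, 28 of the 47 members that passed the filter rose, against 2.89% of the 18488 genes tested there. In that fit 0 fell, against 1.08%, again too small a share for 0 to say much, and the median log2 fold change was 1.20. A gene can pass this filter through 1 of the stages alone. At least 10 counts in both libraries were present for 36 members at 15 dph and for 45 at 23 dph. The 28 of 47 is therefore a description too. Both 23 dph libraries lay above both 15 dph libraries in 43 members, against 33.2% of all genes, and below them in 0 members, against 30.8%.

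The 16 members that rose had log2 fold changes of at least 1.20, with a median of 2.31. Member 7 had 264 and 405 normalized counts at 23 dph, against 35.0 and 29.7 at 15 dph. Its groups were far apart, and the log2 fold change was 3.36 (standard error 0.26, edgeR adjusted p = 0.00017). Member 17 had 282 and 271 at 23 dph, against 50.3 and 60.1 at 15 dph, and its log2 fold change was 2.31 (standard error 0.23, edgeR adjusted p = 0.00080). Its replicates at 23 dph were close to each other. Members 25 and 28 were near the limit of detection before climax and well counted at it. Member 25 had 78.4 and 94.9 normalized counts at 23 dph, against 6.83 and 3.30 at 15 dph (edgeR adjusted p = 0.0085). Member 28 had 44.7 and 54.4 at 23 dph, against 2.56 and 3.30 at 15 dph (edgeR adjusted p = 0.0017). The 2 climax fish did not always match. Member 10 had 287 normalized counts in replicate 1 of 23 dph and 35.9 in replicate 2, against 2.56 and 0 at 15 dph (edgeR adjusted p = 0.026).

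For ENSSMAG00000002590 the climb from 15 dph to 23 dph was a log2 fold change of 1.70 (standard error 0.29, edgeR adjusted p = 0.015), a call that was lost on leaving out any 1 of the 4 libraries of these stages (edgeR adjusted p from 0.075 to 0.19). For ENSSMAG00000022771 it was 0.80 (standard error 0.60, edgeR adjusted p = 0.51), which does not pass the threshold. At 23 dph over 3 dpf this gene was called higher, with a log2 fold change of 1.71 (standard error 0.67, edgeR adjusted p = 0.047), and the call was lost without replicate 2 of 3 dpf (edgeR adjusted p = 0.32) and without either library of 23 dph (edgeR adjusted p of 0.17 and 0.079). Member 6 had 142 and 142 normalized counts at 23 dph, against 39.2 and 17.3 at 15 dph, and narrowly missed the threshold with an adjusted p of 0.060 in edgeR. The spread in these tests comes from all 8 libraries, the juveniles among them, so a gap between the juveniles can also cost a call. The share of all genes called was not computed with a replicate left out, so lost calls may not be particular to the members. The count of 16 was lower without any 1 replicate of 15 dph or 23 dph. With 15 dph represented by 1 fish it was 8 without replicate 1 and 6 without replicate 2, with 23 dph represented by 1 fish it was 9 without replicate 1 and 10 without replicate 2, and 6 of the 16 members were called with every library left out in turn.

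**Figure D3:**
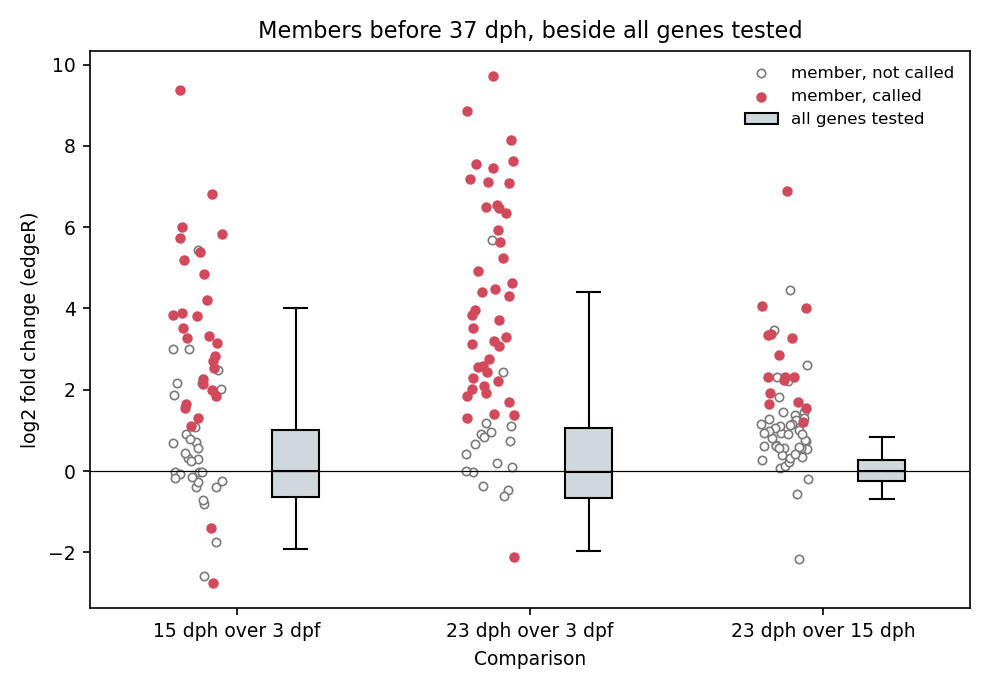
Log2 fold changes from edgeR between the stages before 37 dph, with each point a member, filled where it was called, beside a box of all 18987 genes tested (box, quartiles; line, median; whiskers, percentiles 5 to 95). For 23 dph over 15 dph the members sit mostly above 0, with a median of 1.14 and 16 called, while the median of all genes is 0.00.

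Between the embryo and the pre-metamorphic larva, 27 of the 61 members rose at 15 dph over 3 dpf (44.3%), against 24.4% of all genes tested, and 2 fell (3.28%), against 14.3%. The median log2 fold change was 1.84, and 0.72 with libraries held at no less than 3 counts, since 22 members had at most 3 counts in both 3 dpf libraries. Without replicate 2 of 3 dpf 15 members were called higher. In the 4 libraries of these stages alone 37 members passed the filter, and in that fit 19 of the 37 rose, against 24.2% of the 18716 genes tested, and 2 fell, against 14.3%, with a median log2 fold change of 1.31. The other 24 members, 7 of the 27 called higher among them, entered the test through libraries outside the comparison. The 37 could also pass through 1 of the stages alone. At least 10 counts in both libraries were present for 21 members at 3 dpf and for 36 at 15 dph. The 19 of 37 is therefore a description too. Member 2, ranked next to the most abundant, had 190 and 160 normalized counts at 15 dph, against 18.0 and 21.8 at 3 dpf, and its log2 fold change was 3.15 (standard error 0.22, edgeR adjusted p = 1.2e-06). Member 22 had 89.6 and 68.4 at 15 dph and 0 counts in both 3 dpf libraries (edgeR adjusted p = 0.00015). It then differed little up to climax, with 122 and 79.9 at 23 dph, before 2576 and 1033 at 37 dph.

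At 23 dph over 3 dpf, 43 of the 61 members rose (70.5%), against 25% of all genes tested, and 1 fell (1.64%), against 14.9%. The median log2 fold change was 2.76, and 2.10 with libraries held at no less than 3 counts. In the 4 libraries of these stages alone 47 members passed the filter, of which 38 rose, against 24.4% of 18608 genes, and 1 fell, against 15.3%, with a median log2 fold change of 3.08. The other 14 members, 6 of the 43 called higher among them, entered the test through libraries outside the comparison. The 47 could also pass through 1 of the stages alone. At least 10 counts in both libraries were present for 21 members at 3 dpf and for 45 at 23 dph. The 38 of 47 is therefore a description too. The comparisons of 15 dph and of 23 dph with 3 dpf share the 3 dpf libraries. The patterns of calls below are taken over all 61 members. These include members that passed the filter only through libraries outside a comparison, so the shares are descriptions. By the 3 comparisons together, 10 members (16.4%) rose at each of both steps, from 3 dpf to 15 dph and from 15 dph to 23 dph, a pattern of calls seen in 0.948% of all genes tested, and these 10 had a median of 3111 normalized counts at 37 dph. A further 17 (27.9%) rose to 15 dph with no call for the next step, against 20.7% of all genes, and 6 (9.84%) rose at the step from 15 dph to 23 dph with no call for the first step, against 0.353%. In 10 members (16.4%) only the whole interval from 3 dpf to 23 dph passed the threshold, against 2.96% of all genes. No comparison before 37 dph was called in 16 members (26.2%), against 54.7% of all genes. The 16 had a median of 172 normalized counts at 37 dph, and 5 of these 16 had at least 10 counts in each earlier library. The rule required 37 dph to be at least 8 times each earlier mean, so members low at 37 dph had few earlier counts for a call. The medians of 3111 and 172 therefore follow in part from the rule.

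Members 11 and 15 were the most abundant of those with no call before 37 dph. Member 11 had 67.9 and 58.4 normalized counts at 3 dpf, 81.9 and 70.9 at 15 dph, 106 and 129 at 23 dph, and 5133 and 2045 at 37 dph. Member 15 had 145 and 95.8 at 3 dpf, 116 and 77.45 at 15 dph, 70.5 and 99.6 at 23 dph, and 4107 and 1930 at 37 dph. Both were well counted in every earlier library. The earlier stages of member 11 did not overlap and were higher in turn, while the libraries of member 15 overlapped between stages and its means of 120.3, 96.7 and 85.0 were lower in turn.

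The 2 members that fell from 3 dpf to 15 dph were both among the 8 most abundant at 37 dph. ENSSMAG00000008444, member 8, had the larger fall. Its normalized counts were 50.9 and 26.5 at 3 dpf, 5.12 and 5.77 at 15 dph, 4.96 and 12.7 at 23 dph, and 6142 and 3189 at 37 dph. It was present in the embryo, nearly absent in both larval stages and abundant in the juvenile, with a log2 fold change of -2.74 at 15 dph over 3 dpf (standard error 0.60, edgeR adjusted p = 0.0026) and -2.10 at 23 dph over 3 dpf (standard error 0.58, edgeR adjusted p = 0.0095). The second of these calls was lost on leaving out replicate 1 of 3 dpf (edgeR adjusted p = 0.084) or that of 23 dph (edgeR adjusted p = 0.078). ENSSMAG00000008795, member 3, named after its values were seen, had 95.8 and 86.5 at 3 dpf, 28.2 and 39.5 at 15 dph, 106 and 70.6 at 23 dph, and 8795 and 4510 at 37 dph. It had a dip at 15 dph alone, with a log2 fold change of -1.39 at 15 dph over 3 dpf (standard error 0.37, edgeR adjusted p = 0.0078), which was -1.17 without replicate 1 of 15 dph and then missed the threshold (adjusted p = 0.061).

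Of the 61 members, 5 had a mean of at least 50 normalized counts at 3 dpf, against 16 at 15 dph and 32 at 23 dph. Member 20 had the highest 3 dpf mean of the 61, with 154 and 107 at 3 dpf, 107 and 108 at 15 dph, 223 and 182 at 23 dph, and 2543 and 1605 at 37 dph. Before 37 dph its libraries ran from 107 to 223, and both 23 dph libraries lay above those of 3 dpf and 15 dph. At 23 dph over 3 dpf its log2 fold change was 0.67 (standard error 0.26, edgeR adjusted p = 0.043), too small a difference for a call.

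The juveniles of 37 dph differed from each other in the members. The rule used the mean of these libraries, through which a gene high in only 1 of them can enter. The values below therefore describe members chosen in part by them, set beside genes that were not so chosen. Of the 61 members, 56 were higher in replicate 1 than in replicate 2, or 91.8%, beside 53.3% of the 15889 other genes with a mean of at least 50 at 37 dph. The median ratio of replicate 1 over replicate 2 was 1.56 for the members and 1.02 for the other genes. Over 2-fold differences occurred in 22 members (36.1%) and in 3.13% of the other genes. With counts scaled by the library total, a scaling added after the data were seen, 48 members were higher in replicate 1. The share of the other genes under that scaling was not computed, so the 48 cannot be set beside the 53.3%. A juvenile is 1 library here, so these values describe a pair of fish, and the cause of the difference was not tested.

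**Figure D4:**
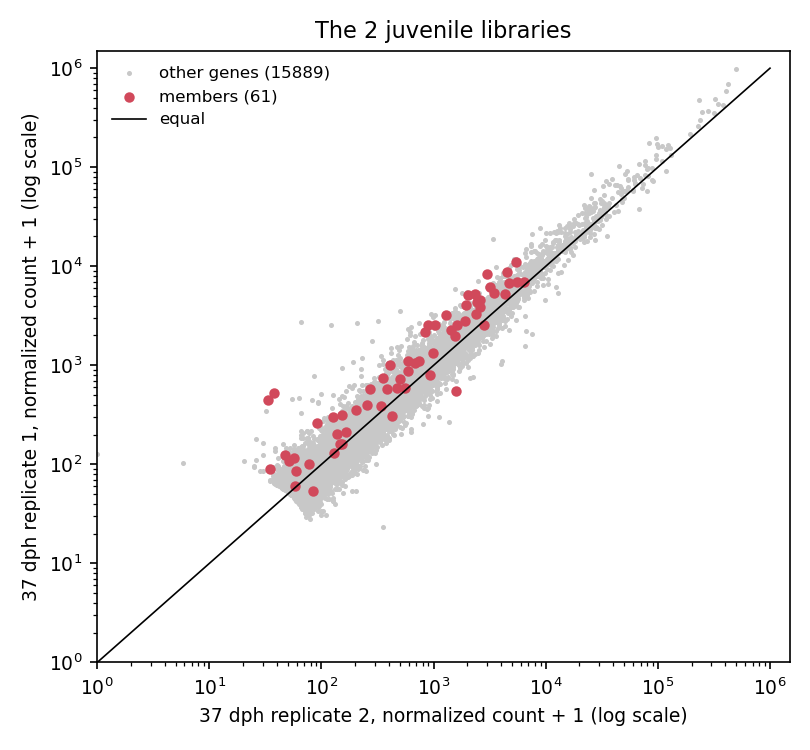
Normalized counts + 1 in replicate 1 of 37 dph against replicate 2 on log axes, with the 61 members in red, 15889 other genes with a mean of at least 50 in grey and a line of equality. Most members lie above the line, 56 of 61, and members 43 and 45 lie furthest above it.

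Members 43 and 45 owed their place to 1 fish. Member 43 had 519 normalized counts in replicate 1 and 36.9 in replicate 2, a ratio of 14.1. Member 45 had 447 in replicate 1 and 32.0 in replicate 2, a ratio of 14.0, beside at most 11.9 in any earlier library. The ratios of the other 59 members ran from 0.346 to 2.88. The lowest belonged to member 27, with 548 in replicate 1 and 1584.5 in replicate 2, against 26.8 and 26.6 at 23 dph. Without replicate 1 of 37 dph the rule found 45 genes, of which 38 were among the 61, and without replicate 2 it found 87, of which 60 were.

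Genes raised 4 to 8-fold at 37 dph by the otherwise same rule numbered 174, of which 173 were tested, and are set beside the members with no test of the difference. At 23 dph over 15 dph 20.2% of them rose, beside 26.2% of the members, and their median log2 fold change was 0.82, beside 1.14. At 15 dph over 3 dpf 65.3% of them rose, beside 44.3% of the members. Between the juveniles, 75.3% of them were higher in replicate 1 of 37 dph, beside 91.8% of the members.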

How the data were processed

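The authors removed adapters with Trimmomatic, aligned the reads with STAR to the turbot assembly ASM1334776v1 and obtained gene counts with HTSeq-count. The deposited values are raw counts in 1 table per library, with no pooling of replicates, and the strand setting is not given in the sources used here. Genes that overlap or have near-identical copies may share reads. The 5 summary entries per table were left out. No feature took 15.3% to 18.9% of aligned entries, ambiguous reads 1.63% to 2.57% and reads not unique 2.52% to 7.00%, the last of these being highest at 37 dph. The names of both tables of the libraries labelled 3 dpf depart from that label: 1 gives days post hatching and the other can be read as a later age post fertilization. The labels were followed, and whether these replicates differ in age is not settled.

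Size factors followed the median ratio method. Tests used edgeR 4.0.16 in R 4.3.3 (filterByExpr, TMM, quasi-likelihood fit of all 8 libraries with 4 stage means, 4 residual degrees of freedom). Standard errors are the size of the log2 fold change over the square root of the F statistic. DESeq2 1.42.0 and limma 3.58.1 served as alternatives, beside other scalings, filters and limits, each replicate left out, and the replicate number as a block. The procedure was tested on simulated data for 23 dph over 15 dph alone. The genes changed there were better counted than most members at 15 dph, so the simulation does not cover the level of those members. Members, comparisons and alternatives were chosen with earlier results of these data known. The genes named are the most abundant member, the one with the largest ratio of the lower 37 dph library to the highest earlier library, and the members with the largest called fall from 3 dpf to 15 dph and from 15 dph to 23 dph, the last of which did not exist. Lists of tissue markers need gene names and were not run. The floor of 3 counts covers counting error only, whereas the standard errors and SDs also hold the spread between libraries.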

Additional observations from a re-analysis of the deposited data

How the results depend on the processing

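The number of members was 106 at a minimum of 6-fold, 31 at 12-fold and 29 when the lower 37 dph library was set against the higher library of each other stage. It was 43 with counts scaled by the library total, and it ranged from 45 to 87 with each replicate left out. Scaling by the total moved the median gene by -0.24 on the log2 scale at 37 dph over 23 dph and by -0.51 at 37 dph over 3 dpf. The shift was -0.32 at 23 dph over 15 dph and 0.05 at 15 dph over 3 dpf. Under this scaling 54 members had a higher mean at 23 dph than at 15 dph, and 58 did in the main setting. The share of all genes with a higher mean at 23 dph was not computed under this scaling, which also moved the median gene. The 54 and the 58 therefore cannot be compared with each other. The share of gene counts at 37 dph was 0.194% without the 10 most abundant members. Members higher at 23 dph than 15 dph numbered 28 of the 47 that passed the filter in a fit of only the 4 libraries concerned, 9 of 61 with limma voom, against 24 in DESeq2, and 6 to 20 with each replicate left out. Members higher at 15 dph than 3 dpf ranged from 15 to 29 with each replicate left out, members lower from 1 to 2, and members lower at 23 dph than 3 dpf from 0 to 1. With a prior count of 2 the median log2 fold changes were 1.01 for 15 dph over 3 dpf, 2.11 for 23 dph over 3 dpf and 1.02 for 23 dph over 15 dph. With each replicate left out these medians ranged from 1.23 to 2.15, from 2.60 to 3.34 and from 1.05 to 1.29. Where 1 replicate was left out, the lone library was assumed to vary like the other stages. The share of all genes called was not computed for limma voom, DESeq2 or a left-out replicate. How far calling moved for all genes in those settings is therefore not known.

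Correlations of the deviations from the stage means ran from -0.14 to 0.23 over the pairs of stages, highest for 3 dpf with 37 dph. No clear pairing of the fish by replicate number was seen, and shared handling was not tested. With the replicate number as a block, 29 members were higher at 15 dph than 3 dpf, 44 at 23 dph than 3 dpf and 21 at 23 dph than 15 dph, and 2, 1 and 0 were lower. The share of all genes called with the block was not computed either. Of 165 values recomputed, 144 stayed within 1.5 times the count or within the spread used for the value, and 21 did not. This tally does not measure stability, since some of the limits were wide. The spread used for the median absolute log2 ratio of the 37 dph libraries was 0.70, above its value of 0.66. The 45 and 87 genes found without replicate 1 or replicate 2 of 37 dph also stayed within the limit. The cause of the 21 changes was not tested. At 3 dpf 21 members had at least 10 counts in both libraries, and at 23 dph 45 did.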

Other observations

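The replicates also differed in the members before 37 dph. At 3 dpf 36 of the 54 members with unequal values were higher in replicate 1, or 66.7%, beside 52.0% of the other genes with a mean of at least 50 at 37 dph. At 15 dph 39 of 61 were higher in replicate 1, or 63.9%, beside 52.8%. Genes raised 4 to 8-fold at 37 dph showed a like skew, with 74.7% higher in replicate 1 at 3 dpf and 64.9% at 15 dph. The skew is thus not particular to the members. At 23 dph 30 were higher in each replicate. The median fold between replicates was 1.63 for the members and 1.26 for the other genes at 3 dpf. It was 1.47 and 1.08 at 15 dph, 1.5 and 1.10 at 23 dph, and 1.58 and 1.18 at 37 dph, and the members have far lower counts than those genes at the 3 earlier stages.

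Members 6 and 8 had the same raw counts at 3 dpf, 51 in replicate 1 and 34 in replicate 2. At 23 dph they stood apart, with 143 and 123 counts for member 6 and 5 and 11 for member 8.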
